A study of Mus musculus with 2 samples.

Results

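The long noncoding RNA genes examined in the embryonic mouse limb were Malat1, Neat1, Gas5, Snhg1, Snhg3, Snhg6, Snhg12, Zfas1, Dnm3os and Miat. The 10 genes were chosen by symbol, with earlier results of these data known. Of these, 9 had a row among the 43346 mouse genes of the deposited tables. Snhg1 (ENSMUSG00000108414, chromosome 19, 8723475 to 8726443, plus strand of mm10) had none, so no level is given for it. This identifier is from GENCODE M21, while the deposited values use GENCODE M4, so the missing row does not show that the RNA was absent. The study sequenced total RNA of limb from B6NCrl embryos at embryonic day 15.5, male and female together, with no treatment and no second genotype. The single group had 2 biological replicates, which were pools of 78 embryos (replicate 1) and 62 embryos (replicate 2). RNA over 200 nt was kept, and 10 ng of it with spike-ins went into each library. With 1 tissue at 1 stage there is no contrast between conditions, and no test was made: levels, transcript forms and the spread between the pools are described.

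Long noncoding RNAs are transcribed and often spliced like messenger RNAs but are not known to be translated into stable proteins. Malat1 and Neat1 remain in the nucleus, where Malat1 gathers at nuclear speckles, stores of splicing factors, and the long form of Neat1 is the scaffold of paraspeckles. The snoRNA host genes (Gas5 and the Snhg genes, with Zfas1) carry small nucleolar RNAs in their introns. These small RNAs are cut from the excised introns and guide chemical modification of ribosomal RNA, while the spliced exons of several hosts are degraded by nonsense-mediated decay when they are translated. Dnm3os is the precursor of 2 microRNA genes and is known for its part in skeletal development, and Miat is a nuclear RNA best known from neurons.

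The libraries held 35104685 and 41757268 expected counts, which are read counts that need not be whole because reads matching several transcripts are shared among them. A count of 0 allows up to 3 counts, which came to 0.0855 and 0.0718 CPM (counts scaled to library size). Amplified reads are not independent molecules, so this limit and the deposited intervals cover counting and read assignment only. As a check of the limb label, 5 of 6 limb position markers had 10 TPM or more in both libraries. Of the tissue markers, 7 of 7 for cartilage (summed level 1394 and 1457 TPM in replicates 1 and 2) and 12 of 12 for muscle also did. The muscle markers differed between the pools, with summed levels of 8867 and 2763 TPM.

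Levels are given as TPM, which divides reads by transcript length and by library size and is the scale on which genes can be set side by side. Malat1 was the most abundant member, at 5219 TPM in replicate 1 and 5702 in replicate 2 (5460.4 ± 342, SD, n = 2 for this and the other members). It was 7th among all mouse genes and 1st among the 6853 counted as long noncoding. These ranks of Malat1 rest on the short transcript length its reads were divided by, as described below. The long noncoding class here includes gene models still to be checked by experiment, such as Gm37376 (1773 ± 56.7 TPM), which lay above Gas5. Among the members Gas5 followed with 506.4 and 664 TPM (585 ± 112), 7th in that class. Of 26 other listed long noncoding RNAs, 22 had a row; the imprinted Meg3 (1214 ± 340.3 TPM), H19 (794 ± 20.9) and Rian (178 ± 12.7) were highest, and Hotair (0.550 ± 0.141) and Lncpint (0.0450 ± 0.0636) lowest. Malat1 and Gas5 stood apart from the other members: Malat1 was 10.3 and 8.58 times Gas5 in the 2 libraries, and Gas5 was 8.20 and 7.12 times the next member.

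A group of 5 members lay close together below them. Snhg6 had 61.7 and 93.25 TPM (77.5 ± 22.3), the widest relative spread of all 9 members. Dnm3os had 60.4 and 70.6 TPM (65.5 ± 7.19). Zfas1 had 51.3 and 68.1 TPM (59.7 ± 11.9). Each of these 3 was higher in replicate 2, and their values overlapped between neighbours. Neat1 had 51.2 and 44.5 TPM (47.8 ± 4.71) and was the only member lower in replicate 2. Snhg3 had 38.4 and 46.5 TPM (42.4 ± 5.73). The gap between neighbours within these 5 was smaller than the sum of their SDs in each of the 4 pairs, and Neat1 and Snhg3 changed places between the libraries. Snhg12 was lower, with 15.7 and 20.4 TPM (18.0 ± 3.30), below Snhg3 by 2.44 and 2.28 times. Miat, at 1.89 and 2.72 TPM (2.31 ± 0.587), was lowest and rested on 274 and 368 counts. Whether a low level in whole limb means fewer cells with the RNA or less RNA per cell cannot be told apart.

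**Figure D1:**
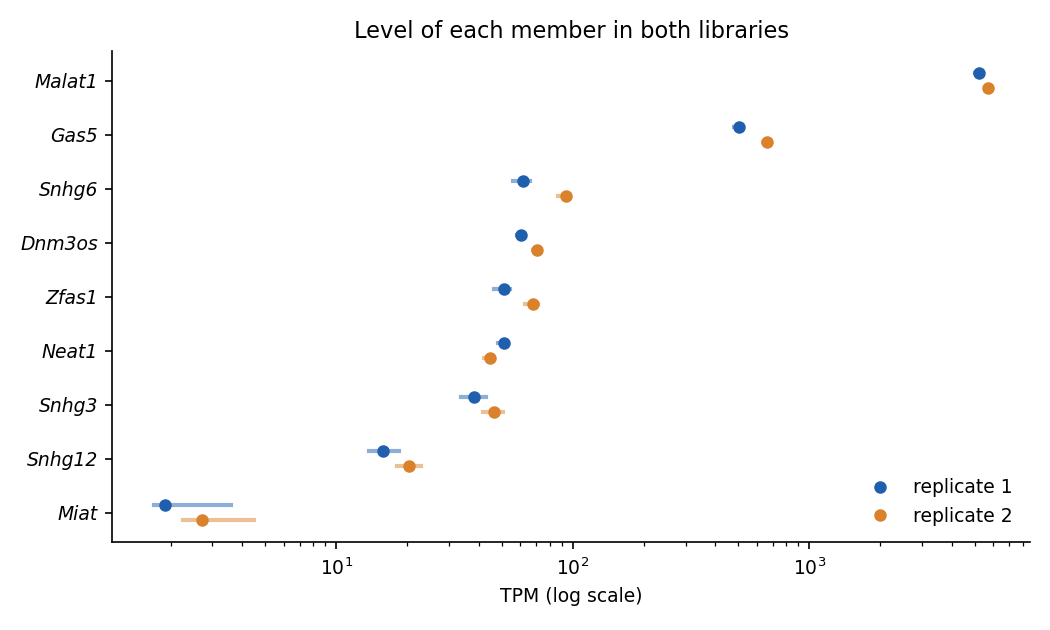
TPM on a log scale for the 9 members with a row, ordered by mean; points are the deposited values of replicate 1 and replicate 2, and bars are the deposited intervals, which belong to the posterior mean estimate and need not hold the point. Malat1 and Gas5 sit alone at the top, 5 members lie between 38.4 and 93.25 TPM, and Miat is lowest.

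The 9 members together held 0.671% ± 0.0523 of the TPM of all mouse genes, and 0.0948% ± 0.0166 without Malat1. Malat1 made up 86.9% and 84.9% of the members' TPM in the 2 libraries. Of expected counts, which are not divided by length, the members held 0.230% ± 0.0217, and Malat1 made up 66.2% and 65.3% of these.

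Malat1 (chromosome 19, 5795690 to 5802672, minus strand) is known as an unspliced RNA of several kilobases, yet the tables placed most of its reads in a short spliced transcript at its start. The full-length single-exon transcript Malat1-201 (6983 nt) had 26.9 and 30.9 TPM on 4131 and 5804 counts. The 485 nt transcript Malat1-203 had 5191 and 5670 TPM on 44700 and 59666 counts. It thus took 91.5% and 91.1% of the gene's counts and 99.5% and 99.4% of its TPM. Its exons cover bases 2 to 435 and 707 to 757 from the gene start, and the 271 nt between them begin with GT and end with AG, the letters at the ends of most introns. The first line below shows the 60 bases around the join, with the second exon in capitals, and the others show the ends of the stretch that is left out, with its first and last 2 bases in capitals (GENCODE M21, GRCm38, the build also called mm10).
Malat1-203 join: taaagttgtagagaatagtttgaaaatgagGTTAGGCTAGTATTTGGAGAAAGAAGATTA
Malat1-203 gap, first 20 bases: GTgtagttttaaaagattga
Malat1-203 gap, last 20 bases: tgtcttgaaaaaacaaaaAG

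At their shared start, how far reads can tell the 2 transcripts apart is limited. Of the 386 windows of 100 bases in Malat1-203, 49 (12.7%) are found in no other transcript of the annotation. Of the 6884 windows of Malat1-201, 5713 (83.0%) are found in no other transcript, so reads there can be assigned to Malat1-201 alone. A second gene overlaps Malat1 near its start on the other strand. Gm37376 (5801941 to 5802393, plus strand, 453 nt), a gene model still to be checked by experiment, covers bases 280 to 732 from the Malat1 start, and every 100-base window of it is the reverse complement of Malat1 sequence. It was given 14321 and 16727 counts, or 22.7% and 20.3% of the reads of the pair, and 1813 and 1733 TPM. Whether the counting used strand is not given in the sources used here, so reads of the stretch that the 2 genes share cannot be told apart. That stretch is all of Gm37376 and a small part of Malat1: 354 of the 7116 distinct windows of Malat1 (4.97%) lie opposite another gene, and 59 of the 386 windows of Malat1-203 (15.3%) lie opposite Gm37376. Of the 453 bases of Gm37376, 271 lie over the gap that Malat1-203 leaves out and 182 over its exons.

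The level of Malat1 therefore depended on the length its reads were divided by. With all of its reads divided by the length of Malat1-201, an alternative chosen after the data were seen, Malat1 had 318 and 349 on the TPM scale (333 ± 21.9), and the deposited mean was 16.4 times this. Treated alike, Gas5 had 139 ± 21.3, Dnm3os 65.5 ± 7.19 and Neat1 10.9 ± 0.880. Malat1 stayed first among the members, but lay below the deposited levels of Meg3 and H19, which were not recomputed in this way. The lead of Malat1 over Gas5 was smaller, and Neat1 dropped to the place above Miat.

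**Figure D2:**
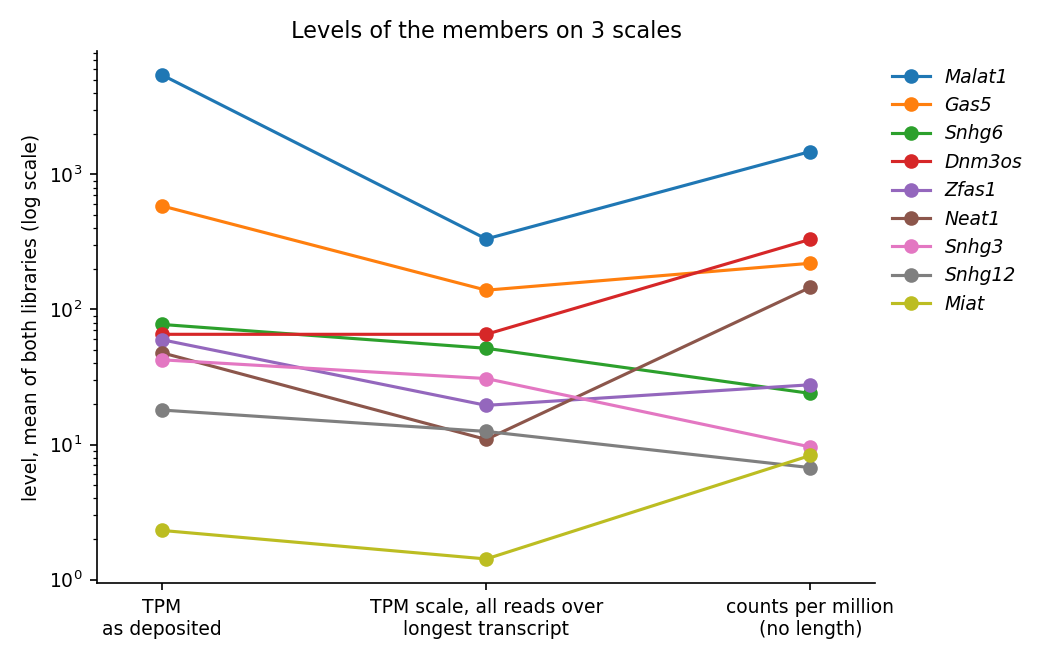
Mean level of the 9 members with a row on 3 scales, all on 1 log axis: TPM as deposited, the same scale with all reads divided by the longest transcript, and CPM, which is not divided by length; lines join the values of 1 gene. Malat1 is first on each scale, while Neat1 and Dnm3os change places with shorter RNAs, and Miat lies above Snhg12 by CPM.

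Neat1 (chromosome 19, 5824708 to 5845478, minus strand) was split between its short and long forms. The short form Neat1-202 (3004 nt) had 45.5 and 39.4 TPM on 2948 and 3119 counts. The long form Neat1-201 (20771 nt), which corresponds in extent to the paraspeckle scaffold, had 5.15 and 4.77 TPM on 2375 and 2689 counts. Per length, the short form was 8.83 and 8.26 times the long form, although the 2 forms had similar numbers of reads (ratios of 1.24 and 1.16). Both pools thus had the short form in excess per length. Of the 20672 windows of the long form, 84.4% are found in no other transcript, against 1.93% of the 2905 windows of the short form, whose level thus follows from the reads left over at the shared start.

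**Figure D3:**
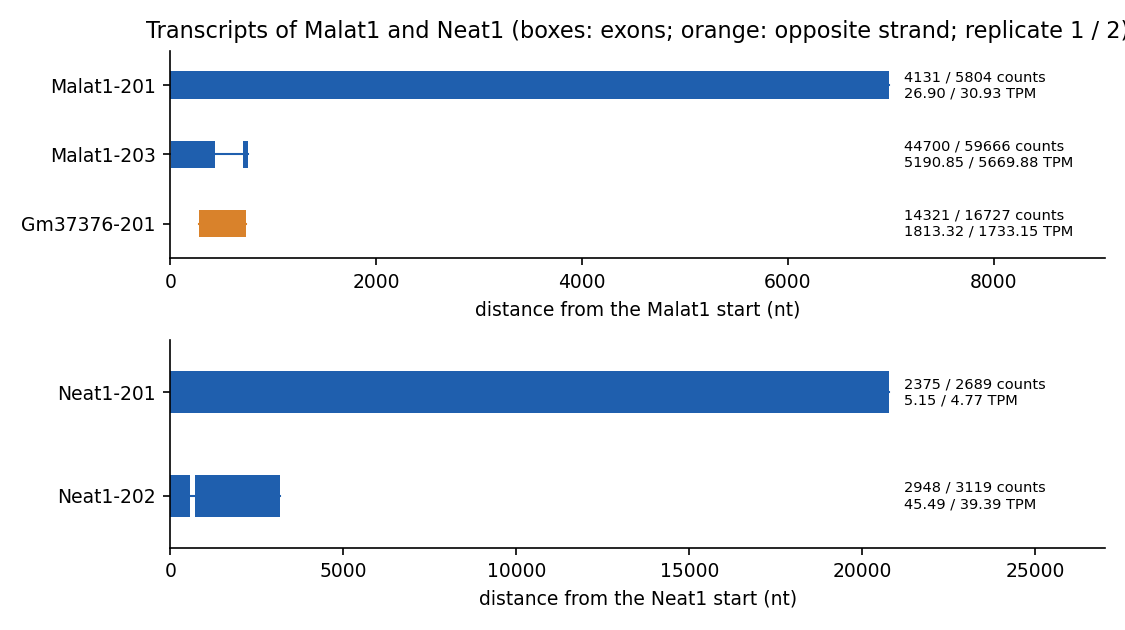
Maps of Malat1 with the opposite-strand gene Gm37376 (upper panel) and of Neat1 (lower panel), as distance from each gene's start in nt; boxes are exons, and the numbers at the right are expected counts and TPM in replicates 1 and 2. The reads assigned to Malat1 lie mostly in the short Malat1-203, whose exons lie partly opposite Gm37376, and Neat1-202 covers only the start of Neat1-201.

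Genes of the nuclear bodies to which these RNAs belong were well expressed. All 15 listed nuclear speckle proteins had 10 TPM or more in both libraries (median 171 ± 3.39 TPM), led by the splicing factors Srsf3 (609.6 ± 7.51), Srsf2 (524 ± 27.7) and Srsf5 (483 ± 9.28), with Srsf4 (82.2 ± 2.62) and Pnn (63.8 ± 1.24) lowest. Of 19 paraspeckle proteins, 18 reached 10 TPM (median 73.2 ± 1.56). Hnrnpk (1215 ± 18.1), Ewsr1 (558 ± 25.2) and Hnrnpa1 (507 ± 31.1) were highest, and Pspc1 (22.4 ± 1.34) and Taf15 (9.39 ± 0.721) were lowest. Of 14 genes for processing and stability of the Malat1 and Neat1 ends, 11 reached 10 TPM (median 26.7 ± 2.31). Pop5 (80.8 ± 0.806), Rpp21 (80.8 ± 7.15) and Pop4 (65.3 ± 1.40), subunits of RNase P, which cuts both RNAs, were highest. Rprd2 (8.14 ± 0.148) and Rpp25 (0.615 ± 0.417) were lowest. Frmd8, a neighbour of the 2 genes on chromosome 19, had 24.3 ± 0.976 TPM.

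Gas5 (chromosome 1, 161034422 to 161038539, plus strand), whose RNA accumulates when growth stops, was spread over 25 annotated transcripts. The spliced forms Gas5-210 (557 nt) and Gas5-224 (502 nt) led, the first with 152 and 219 TPM and the second with 138 and 189 TPM. The 20 transcripts annotated as retaining an intron held 41.8% and 37.9% of the gene's TPM, and 58.2% and 52.9% of its counts. Gas5-210 has no 100-base window of its own and Gas5-224 has 35 of 403, so these shares rest on how reads were divided among overlapping forms.

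Zfas1 (chromosome 2, 167062934 to 167065862, plus strand) was the other host with annotated retained-intron forms. These held 24.1% and 30.0% of its TPM. Most of the rest was in ENSMUST00000125674 (737 nt), a transcript of the deposited tables that is not in GENCODE M21, with 38.9 and 47.7 TPM or 75.8% and 70.0% of the gene. The deposited intervals of that transcript reached from 0.302 to 37.9 TPM in replicate 1 and from 14.6 to 47.0 TPM in replicate 2, and the posterior mean estimates gave 26.7% and 21.7% of the gene to a further spliced transcript that had almost none by TPM. Its second transcript by mean TPM, Zfas1-203 (567 nt, retained intron), had 2.79 and 7.31 TPM. For the gene as a whole the intervals were 46.7 to 54.1 and 63.1 to 71.0 TPM.

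The remaining hosts had no transcript annotated as retaining an intron, and their forms are called spliced by that label. Some of these forms share sequence with other genes, snoRNA genes inside the hosts among them. Snhg3-202 shares 60 of its 482 windows of 100 bases in this way, and Snhg12-207 shares 31 of 410. Snhg3 (chromosome 4, 132348014 to 132353686, minus strand) was mostly Snhg3-204 (437 nt), with 32.4 and 39.0 TPM or 84.4% and 83.9% of the gene. Its second form, Snhg3-202 (581 nt), had 3.40 and 4.50 TPM. Snhg6 (chromosome 1, 9941959 to 9944118, minus strand) had no dominant form: Snhg6-205 (816 nt) led with 31.9% and 29.4% of its TPM, and Snhg6-203 (473 nt) held 26.1% and 28.3%. Snhg12 (chromosome 4, 132308623 to 132311024, plus strand) was led by Snhg12-206 (606 nt) with 53.7% and 63.4%. Its second form, Snhg12-205 (933 nt), held 31.1% and 20.4%. Some reads of Snhg3 could belong to a neighbour: 32.3% of its 100-base windows lie opposite Gm17300, which had 5.56 ± 0.212 TPM, and it overlaps the protein-coding Rcc1 on the same strand.

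**Figure D4:**
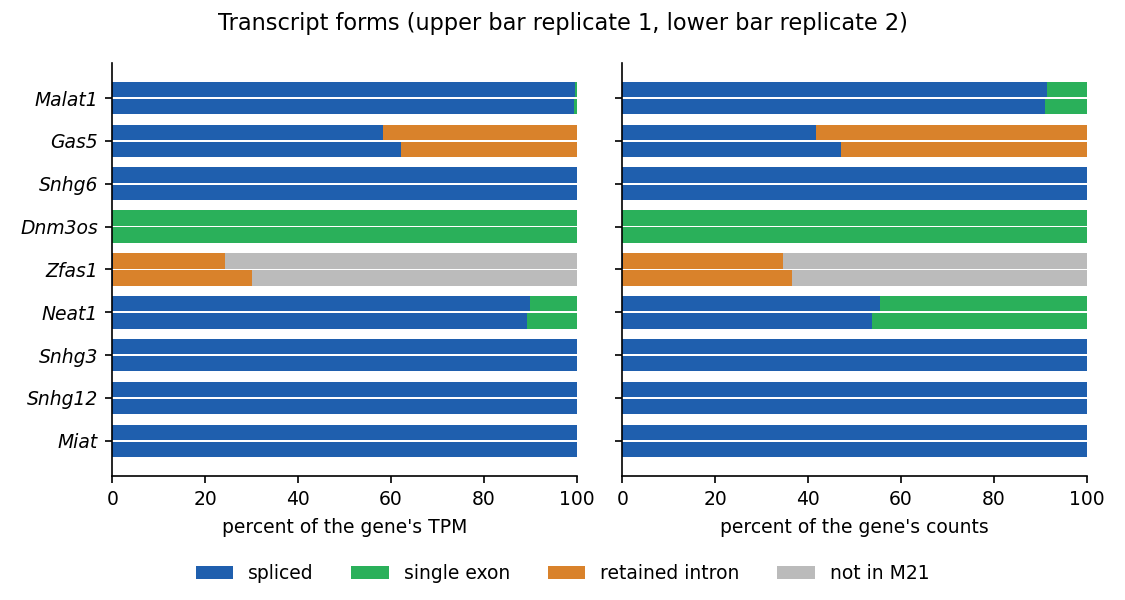
Share of each member's TPM (left) and expected counts (right) in spliced, single-exon and retained-intron transcripts and in transcripts of the tables that are not in GENCODE M21, in percent; the upper bar of a pair is replicate 1 and the lower bar replicate 2. Transcripts annotated as retaining an intron appear in Gas5 and Zfas1, and the single-exon share of Neat1 and Malat1 is larger by counts than by TPM.

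GENCODE M21 places 29 snoRNA genes inside the 6 host members: 10 in Gas5, 8 in Snhg1, 5 in Snhg12, 3 in Zfas1, 2 in Snhg3 and 1 in Snhg6. Some of these entries are duplicate models of 1 snoRNA. In 19 of the 29 the letters TGATGA stood within the first 25 bases and CTGA within the last 25, as in the C and D boxes of the snoRNAs that guide methylation. The sequences of 4 are shown with those letters in capitals, 2 from Gas5 and 1 each from Snhg6 and Zfas1, to show what these introns carry (GENCODE M21, GRCm38).
Snord80 (Gas5): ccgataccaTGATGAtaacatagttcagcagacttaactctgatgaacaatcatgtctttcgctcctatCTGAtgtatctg
Snord47 (Gas5): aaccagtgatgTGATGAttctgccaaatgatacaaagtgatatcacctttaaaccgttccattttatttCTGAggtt
Snord87 (Snhg6): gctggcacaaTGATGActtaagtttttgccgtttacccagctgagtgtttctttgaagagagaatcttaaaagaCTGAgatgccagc
Snord12 (Zfas1): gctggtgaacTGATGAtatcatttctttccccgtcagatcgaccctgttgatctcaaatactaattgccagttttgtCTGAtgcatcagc

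The tables give no level for most of the mature snoRNAs. Of the 27 with a row, 21 are 60 to 93 nt long and have an effective length of 0 in the tables, so no read could be assigned to them, and RNA under 200 nt was not kept. The other 6, all of 126 nt or more, each had a count in at least 1 library. Snora73b and Snora73a in Snhg3, each 205 nt and so just over the size limit, had 13 and 9 counts and 2 and 10 counts. Snord22, inside the span of Snhg1, had 3 and 5 counts.

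Many snoRNA hosts belong to the TOP genes, whose RNAs begin with a run of pyrimidines (C and T) and whose translation follows growth signals. RefSeq promoter windows (GRCm38.p6, 250 bases before to 50 after each start) were at hand for 5 of the 6 host members, Snhg6 being the exception. The 60 bases from 40 before to 20 after the start are shown for each of these hosts, both starts of Gas5 included, with the letters TATA, where they stand 40 to 16 bases before the start, and the longest run of C and T from 10 before to 15 after it in capitals.
Gas5, outer start: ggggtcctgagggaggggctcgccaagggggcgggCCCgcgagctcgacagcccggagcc
Gas5, inner start: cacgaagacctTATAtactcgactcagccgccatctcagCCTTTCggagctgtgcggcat
Snhg1: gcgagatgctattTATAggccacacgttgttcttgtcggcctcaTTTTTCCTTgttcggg
Snhg12: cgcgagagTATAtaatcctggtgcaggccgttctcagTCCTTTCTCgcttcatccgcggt
Snhg3: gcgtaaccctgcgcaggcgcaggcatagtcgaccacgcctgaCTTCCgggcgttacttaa
Zfas1: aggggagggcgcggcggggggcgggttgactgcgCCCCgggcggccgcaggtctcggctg

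TATA on the coding strand stood in that place in the inner start of Gas5, in Snhg1 and in Snhg12, and not in the outer start of Gas5, Snhg3 or Zfas1. Over all 32851 windows 5.91% held it. The run of C and T was 9 bases in Snhg1 and Snhg12, 6 in the inner start of Gas5, 5 in Snhg3, 4 in Zfas1 and 3 in the outer start of Gas5. A run of 6 or more was found in 24.4% of all windows and one of 9 or more in 5.87%. Dnm3os, which hosts no snoRNA, had both TATA and a run of 16. These matches describe letters, not bound sites or measured start points.

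Other genes of snoRNA biology were measured beside the host members. Of 15 other listed snoRNA host RNAs, 9 had a row (median 32.6 ± 0.870 TPM). They were listed as long noncoding, but Snhg11 is annotated as protein-coding in GENCODE M21. Snhg5 (97.0 ± 0), Snhg20 (72.6 ± 2.45) and Snhg15 (41.4 ± 5.76) were highest and Snhg14 (5.80 ± 0.983) and Snhg11 (3.08 ± 0.891) lowest, so Gas5 lay above all of them. The 25 protein-coding hosts, among them ribosomal protein genes, had a median of 474 ± 20.6 TPM. Hspa8 (1826 ± 6.29) and Rpl23a (1107 ± 123) were among the highest, and Gnl3 (43.8 ± 0.841) and Pabpc4 (34.6 ± 1.20) lowest. Of 17 snoRNP genes, whose proteins bind or assemble snoRNAs, 16 reached 10 TPM in both libraries (median 89.8 ± 0.410). Snu13 (217 ± 1.37), Nop56 (213 ± 0.0354) and Nop58 (184 ± 8.80) were highest, and Shq1 (12.3 ± 0.170) and Naf1 (1.83 ± 0.354) lowest. The 15 genes of nonsense-mediated decay had a median of 20.6 ± 0.940 TPM. Eif4a3 (264 ± 3.24), Magoh (133 ± 14.5) and Rbm8a (61.8 ± 4.25), which form the core of the exon junction complex, led this list, while Upf1 (12.4 ± 1.39) and Upf2 (7.79 ± 0.742) were lowest.

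Dnm3os (chromosome 1, 162217623 to 162225550, plus strand) lies within Dnm3 on the other strand. All of its TPM fell in 2 single-exon transcripts, Dnm3os-201 (7928 nt) and Dnm3os-202 (7926 nt). Dnm3os-202 held 61.6% of the gene in replicate 1 and 80.7% in replicate 2. The 2 transcripts differ in 2 of 7829 windows, so their shares cannot be told apart by reads. Dnm3 itself had 13.6 and 19.4 TPM (16.5 ± 4.07), below Dnm3os in both libraries. Dnm3os had the second largest number of reads of the members, 10549 and 15061 counts.

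The mature microRNAs encoded in Dnm3os are shown with the seed, bases 2 to 8, in capitals, since these letters set which messages they pair with (RefSeq, GRCm38.p6). The pair from Mir199a-2 begins 221 and 260 nt after the start of Dnm3os, and the pair from Mir214 begins 5774 and 5815 nt after it. No 2 of the 4 share a seed.
mmu-miR-199a-5p: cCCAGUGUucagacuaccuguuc
mmu-miR-199a-3p: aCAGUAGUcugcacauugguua
mmu-miR-214-5p: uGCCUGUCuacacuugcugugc
mmu-miR-214-3p: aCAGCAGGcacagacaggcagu

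The rows of both microRNA genes stood at 0 counts in both libraries. These are hairpin rows of 110 nt with an effective length of 11 nt, shorter than the RNA kept, so no level of the microRNAs follows. The 9 listed genes of microRNA processing and function had a median of 19.4 ± 1.14 TPM. Tarbp2 (71.2 ± 5.54), Drosha (28.7 ± 1.36) and Dgcr8 (25.8 ± 2.26) were highest, the last pair forming the nuclear complex that cuts hairpins out of long precursors. Ago1 (2.94 ± 0.488) and Ago4 (2.17 ± 0.785) were lowest.

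Miat (chromosome 5, 112213228 to 112229395, minus strand) was led by Miat-201 (8758 nt), with 1.29 and 1.46 TPM on 250 and 344 counts. Its second form, Miat-204 (284 nt), had 0 and 1.19 TPM on 0 and 6 counts, and held 43.8% of the gene's TPM in replicate 2 through its short length. By counts Miat-201 held 91.4% and 93.7%, and with all reads divided by the longest transcript the gene had 1.35 and 1.49 on the TPM scale (1.42 ± 0.0957). The difference between the libraries in the gene's deposited TPM was thus smaller where Miat-204 had no weight. Of its listed protein partners, Srsf1 (186 ± 17.3 TPM), Sf1 (95.9 ± 1.97) and Qk (22.7 ± 0.339) were expressed, and Celf3, a factor of neurons, had 0.250 ± 0.0141. The 9 neuron markers had a summed level of 49.7 and 53.0 TPM, and 1 of them reached 10 TPM in both libraries.

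Between the 2 pools, the members were mostly higher in replicate 2. Differences are given as log2(TPM + 0.1), replicate 2 minus replicate 1, from which the median gene's value was subtracted. Of the 9 members 8 were higher in replicate 2. Over the 15571 genes that averaged 1 TPM or more, the subtraction itself sets this share at 50.0%, and for the 873 long noncoding genes among them it was 60.5%. The median was 0.40 over the 9 members and 0.41 over the 5 host members with a row. Snhg6 differed most (0.62, or 1.53-fold), followed by Miat (0.53, but 0.16 with counts scaled by TMM or size factors), Zfas1 (0.43), Gas5 (0.41) and Snhg12 (0.40). Snhg3 (0.30), Dnm3os (0.25) and Malat1 (0.15) were closer, and Neat1 was at -0.18.

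Most of these differences were small. Of the 9 members 1, Snhg6, was over 1.5-fold apart, against 8.00% of all genes in either direction, 3.12% of them higher in replicate 2, and 14.2% of long noncoding genes. Over 2-fold apart were 0 of the 9, against 3.63% of all genes in either direction and 1.16% higher in replicate 2. The deposited TPM intervals of the 2 libraries did not overlap for 6 of the 9, against 23.2% of all genes. These 6 were Malat1, Neat1, Gas5, Snhg6, Zfas1 and Dnm3os, and the 3 whose intervals overlapped, Snhg3, Snhg12 and Miat, had the fewest counts of the members. The intervals describe reading error within a library, and members with many reads have narrow ones.

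The 9 other host RNAs had a median log2 difference of 0.02, with 6 higher in replicate 2 and 3 higher in replicate 1. Snhg11 (0.60) was the 1 of these over 1.5-fold apart, and Snhg15 was at -0.26. Protein-coding hosts had a median of 0.09 (19 of 25 higher in replicate 2), snoRNP genes 0.01, decay genes 0.10, paraspeckle genes 0.03 and speckle genes -0.00. Of the genes next to the members, Dnm3 was at 0.53. Slc3a2 (-0.34), Trnau1ap (-0.17), Zbtb37 (-0.11), Znfx1 (-0.11) and Rcc1 (-0.10) were lower in replicate 2. Frmd8 was at 0.10, and Tcf24, at 0.07 and 0.13 TPM, was near the floor. The opposite-strand Gm37376 was at -0.04, away from Malat1.

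Muscle marker RNA moved with the pools: 12 of 12 muscle markers were over 1.5-fold lower in replicate 2, with a median log2 difference of -1.53. The 8 fibroblast and mesenchyme markers had a median of 0.05, the 7 cartilage markers 0.06 and the 6 limb position markers 0.58. The limb position markers went both ways: 4 were higher in replicate 2, 3 of them over 1.5-fold. These 4 were Pitx1 (0.71), Hoxa13 (0.64), Hoxd13 (0.62) and Tbx4 (0.54). The 2 that were lower in replicate 2 were Tbx5 (-0.39) and Msx1 (-0.19). All 6 endothelial markers were lower there, with a median of -0.19. The part of these differences in the members' values was not tested.

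**Figure D5:**
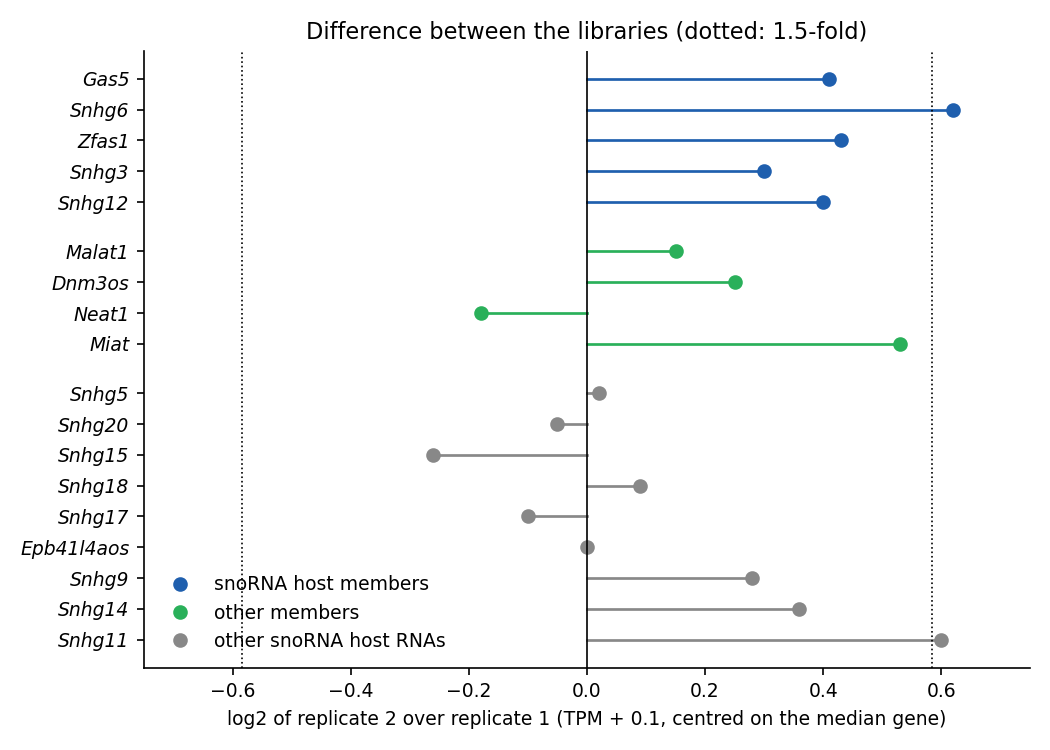
Difference between the libraries in log2(TPM + 0.1), replicate 2 minus replicate 1 after subtracting the median gene, for the 5 host members with a row, the 4 other members and 9 other snoRNA host RNAs; dotted lines mark 1.5-fold. All 5 host members lie between 0.30 and 0.62, while the other host RNAs lie between -0.26 and 0.60.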

How the data were processed

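Total RNA sequencing of 2 pools of limb was analysed. The members and the gene lists were chosen with earlier results of these data known. Per the deposited sample records, the assembly was mm10 and the annotation GENCODE M4. Which programs aligned and counted the reads is not given in the sources used here; the column names are those of RSEM. The authors deposited expected counts, TPM, posterior mean TPM, FPKM and each transcript's percent of its gene, per the file headers. The lower and upper bounds of TPM are signal values on the TPM scale that the authors deposited beside the posterior means.

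Symbols, transcript names and coordinates were taken from GENCODE M21 by identifier without version. Differences used log2(TPM + 0.1), centred on the median gene of mean TPM of at least 1. Forms were summed from transcript TPM, which matched the deposited percent within 0.15. Windows of 100 bases followed the effective lengths, 99 nt under the listed lengths. Alternatives used expected counts, rounded, scaled with edgeR 4.0.16 (TMM) or DESeq2 1.42.0 (size factors), the deposited FPKM and other pseudocounts and filters. The difference script was checked on simulated data. Named were all members, the neighbours, the 2 highest transcripts of each member, and of each other list the 3 highest and 2 lowest genes by mean TPM. Some genes that this rule names are not reported here. The snoRNA rows, Gm37376 and Gm17300 were named after their values were seen. Python 3.11.15 and R 4.3.3 were used.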

Additional observations from a re-analysis of the deposited data

How the results depend on the processing

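The order of the 9 levels depended on length: 3 members kept their place with CPM in place of TPM, and 3 with all reads divided by the longest transcript, against 9 and 7 with either library left out. By expected counts in place of TPM, retained-intron forms held 55.6% of Gas5 and 35.5% of Zfas1 (39.9% and 27.0% by TPM), single-exon forms 45.4% of Neat1 and 8.66% of Malat1 (10.4% and 0.529% by TPM), and the members 0.230% of mouse gene reads. Leaving out a library gave 37.9 to 41.8% for Gas5, 24.1 to 30.0% for Zfas1, 10.1 to 10.7% for Neat1, 0.515 to 0.542% for Malat1 and 0.634 to 0.708% for the share held by the members. The level of Miat was 2.94 by posterior mean TPM, and it was the only 1 of the 9 member levels to move by over 1 SD on that scale. FPKM and TPM rescaled over mouse genes differ from TPM by 1 factor per library, so they are no separate check of the levels. The log2 difference of Miat was 0.16 with expected counts scaled by TMM or by size factors, against 0.53 by TPM. Under 9 other scalings, pseudocounts and filters every member kept its direction, with 1 over 1.5-fold and none over 2-fold apart, and 8 higher in replicate 2 (7 of 8 where Miat was filtered out at a mean TPM of 10). No paired analysis was possible because there is 1 group. Depth limits Snhg3, Snhg12 and Miat, and shared sequence limits transcript shares. With 2 pools of 1 group no test was made.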
